A study of Mus musculus with 6 samples.

Results

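The 10 genes described here, regulators of DNA methylation and Polycomb repression, are the DNA methyltransferases Dnmt1, Dnmt3a and Dnmt3b, the dioxygenases Tet1, Tet2 and Tet3, the Polycomb genes Ezh1, Ezh2 and Bmi1, and Asxl1. They were chosen by symbol from the 12179 genes of the deposited normalized table, and their reads were taken from the table of 27179 genes with raw counts. RNA-Seq was performed on LT-HSCs (CD150+CD48-LSK cells, the long-term hematopoietic stem cells) sorted from the BM of C57BL/6 mice at 8 weeks of age. The comparison is between 3 WT libraries and 3 libraries from mice labelled Foxm1 heterozygous (Foxm1 HET), a state in which 1 allele of the transcription factor gene Foxm1 is lost. Titles of the Foxm1 HET libraries name only the floxed allele. The study used both Tie2-Cre, which is active in endothelial and blood cells, and the interferon-inducible Mx1-Cre, and the driver behind these libraries is not given in the sources used here. Its controls in other assays were Foxm1 fl/+ mice without Cre, whereas the labels call the control libraries WT.

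DNA methylation is copied onto the new strand after replication by Dnmt1, and set on unmethylated CpG sites by Dnmt3a and Dnmt3b. The Tet enzymes oxidize methylcytosine and thereby start its removal. Polycomb repressive complex 2 (PRC2), with Ezh1 or Ezh2 as its catalytic subunit, methylates histone H3 at lysine 27, and PRC1, which contains Bmi1, ubiquitinates histone H2A. Asxl1 is a cofactor of the deubiquitinase complex PR-DUB, which removes that ubiquitin. Dnmt3a, Tet2 and Asxl1 are the genes most often mutated in human clonal hematopoiesis, and Bmi1 is needed for self-renewal of HSCs.

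Libraries held between 14573002 and 25798509 counted reads, and Foxm1 HET replicate 2 stood apart, with the lowest total and 4467 genes at 10 reads or more, against 5963 to 9894 such genes in the other libraries. Of the genes tested, 39.9% had 3 reads or fewer in that library. Foxm1 had 1182, 2615 and 2942 reads in WT, against 659, 5 and 742 in Foxm1 HET, a difference that did not pass the tests described below. Of 12 marker genes of LT-HSCs, 8 to 11 had at least 10 reads in a WT library and 8 to 12 in a Foxm1 HET library. Kit and Hlf were well covered in every library. Slamf1, the gene of CD150, had 2, 1572 and 0 reads in WT, against 8, 0 and 543 in Foxm1 HET. Other markers were patchy too, such as Hoxb5, with 626, 0 and 0 reads in WT, against 0, 1 and 226 in Foxm1 HET. Cd48, whose protein is absent from the sorted cells, had 6608 reads in WT replicate 2 and 1285 in Foxm1 HET replicate 1. The 4 progenitor markers (Cd48, Cd34, Flt3 and Il7r) were summed in CPM, reads scaled to a common library total. Their sums were 19.4 to 1370 CPM in WT and 46.9 to 748 CPM in Foxm1 HET. Cd34 alone had 1010 CPM in WT replicate 2, and the gate named above does not select on CD34 or Flt3. The 7 erythroid markers summed to 74.3 to 119 CPM in WT and 15.9 to 36.4 CPM in Foxm1 HET, with Hba-a1 at 0 throughout. These sums separated the genotypes, but 0 of the 5 erythroid markers tested did so singly, against 8.68% of all genes tested. The 8 myeloid markers together reached 3900 to 11100 CPM in WT and 1980 to 8030 CPM in Foxm1 HET. The 5 B cell markers also separated in sum, at 12.6 to 200.0 CPM in WT and 0 to 6.68 CPM in Foxm1 HET. Cd79b, the 1 B cell marker tested, overlapped between genotypes. T cell markers did not pass 30.5 CPM and megakaryocyte markers 7.8 CPM in any library, with Cd79a, Ms4a1, Cd3d and Cd3g at 0 in every library. The part of other cells in the values below was not tested, and in bulk libraries fewer cells of a type and less RNA per cell cannot be told apart.

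All 10 genes had enough reads to be tested, and 0 of them passed an adjusted p of 0.05 between Foxm1 HET and WT in edgeR's quasi-likelihood test, where 0.329% of the 8195 genes tested passed. DESeq2 called 0 of the 7 for which it gave a p (2.37% of all genes), and limma-voom 0 of the 10 (0.0488% of all genes). At an unadjusted p under 0.05 edgeR again gave 0 of the 10, with 6.03% of all genes below it, and the smallest p among the 10 was 0.174, for Bmi1. Limma on the normalized table gave an unadjusted p of 0.0348 for Ezh2 (adjusted p = 0.93), and edgeR with at least 10 counts required in every library gave 0.042 for Bmi1 (adjusted p = 0.74). The estimates were higher in Foxm1 HET for 4 genes and lower for 6, with a median log2 fold change of -0.51, while the median of all genes tested was -0.26. With library size as the only scaling these medians were 0.11 and 0.10. The libraries of the genotypes did not overlap for 2 of the 10 genes, Bmi1 and Ezh2, and for 8.68% of all genes tested. The same genes separated the genotypes in the normalized table, where 9.64% of all genes did. Of the 10 genes, 3 were highest in Foxm1 HET replicate 2 (19.4% of all genes) and 5 were lowest in it (36.3% of all genes). These are log2 CPM scaled by edgeR's TMM method with a prior count of 2. On this scale the lowest and the highest of the 6 libraries were a median of 5.98 apart for the 10 genes and 8.10 apart over all genes tested. Standard errors (SE) of the log2 fold changes lay between 1.57 and 2.66 for the 10 genes, so that even several-fold differences were not detectable with these libraries. Foxm1, the targeted gene, was not called either, although its genotypes did not overlap in log2 CPM. EdgeR put its difference at -3.3 in log2 units (SE 2.33, adjusted p = 0.961), and DESeq2 gave an adjusted p of 0.224. The absence of calls among the 10 genes is therefore no evidence that their levels were unchanged.

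**Figure D1:**
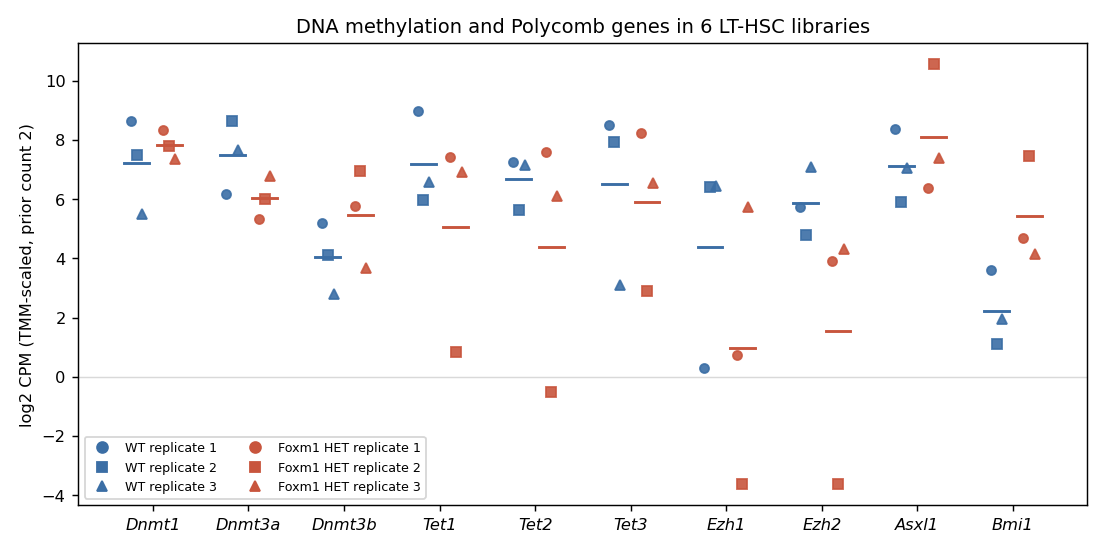
Level of each of the 10 genes (log2 CPM, TMM-scaled) in 3 WT libraries (blue) and 3 Foxm1 HET libraries (red), with the replicate given by the symbol and the mean of each genotype by a bar. Bmi1 is higher and Ezh2 lower in every Foxm1 HET library, and the lowest value of 5 genes is the square of Foxm1 HET replicate 2.

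The maintenance methyltransferase Dnmt1 (GRCm38 chromosome 9, 20907206 to 20959888, minus strand) had 8764, 4049 and 722 reads in WT, against 12273, 1443 and 6837 in Foxm1 HET, each given in the order of replicates 1, 2 and 3. In TMM-scaled log2 CPM, WT replicates 1 and 3 were the highest and the lowest of all 6 libraries, and the Foxm1 HET libraries lay between them. Before TMM scaling Foxm1 HET replicate 1 was the highest, at 482 CPM, against 437 CPM in WT replicate 1. Means were 7.21 ± 1.58 (SD, n = 3) for WT, against 7.83 ± 0.49 (SD, n = 3) for Foxm1 HET, with a log2 fold change of 0.19 (SE 1.64, edgeR adjusted p = 0.998).

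Dnmt3a, the main de novo methyltransferase of HSCs (chromosome 12, 3806980 to 3914443, plus strand), had 1592, 9038 and 3266 reads in WT, against 1517, 416 and 4627 in Foxm1 HET. Its log2 CPM were 6.17, 8.64 and 7.67 in WT, against 5.32, 6.01 and 6.79 in Foxm1 HET. The genotypes overlapped through WT replicate 1, which lay below Foxm1 HET replicate 3. The log2 fold change was -1.66 (SE 1.81, edgeR adjusted p = 0.998). Of its exon bases, 2.38% are shared with 4833432E10Rik on the opposite strand, and the use of strand in counting is not stated.

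Its paralog Dnmt3b (chromosome 2, 153649454 to 153687730, plus strand) had 808, 387 and 109 reads in WT, against 2095, 802 and 533 in Foxm1 HET. The estimate had the opposite sign to that of Dnmt3a, with a log2 fold change of 1.66 (SE 2.42, edgeR adjusted p = 0.998), and the log2 CPM overlapped, with Foxm1 HET replicate 3 at 3.68 below WT replicates 1 and 2 at 5.19 and 4.11. Without Foxm1 HET replicate 2 the log2 fold change was 0.81. The counts of Dnmt3b are uncertain, because 9.81% of its 50-base transcript stretches also occur in the related gene Dnmt3c.

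The balance of these paralogs was compared within each library, where library scaling cancels. The log2 ratio of Dnmt3a to Dnmt3b reads per kb was -0.21, 3.35 and 3.70 in WT, against -1.65, -2.13 and 1.93 in Foxm1 HET. Dnmt3a was therefore well above Dnmt3b in WT replicates 2 and 3 and Foxm1 HET replicate 3, and below it in the other 3 libraries. The mean was 2.28 ± 2.17 (SD, n = 3) for WT, against -0.62 ± 2.22 (SD, n = 3) for Foxm1 HET, a difference of -2.90 that did not pass the two-sided exact permutation test (p = 0.2), and the genotypes overlapped. Of the summed reads per kb of the 3 methyltransferases, Dnmt3a made up 9.29%, 55.6% and 70.3% in WT, against 5.96%, 9.25% and 28.0% in Foxm1 HET.

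**Figure D2:**
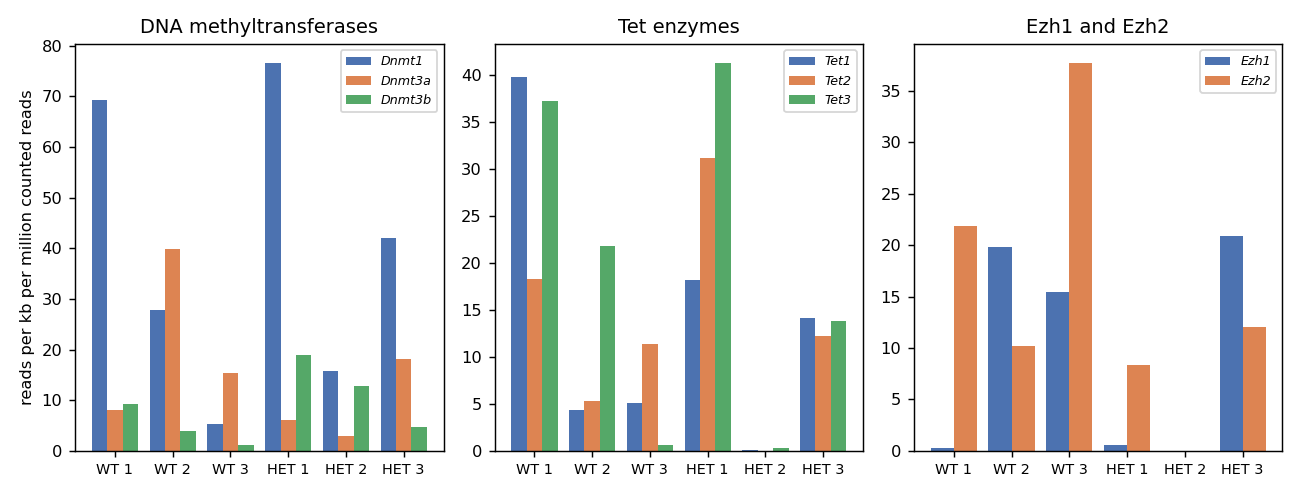
RPKM (reads per kb of gene length, scaled to library totals) for the DNA methyltransferases, the Tet enzymes and Ezh1 with Ezh2 in each library, as bars by gene. Dnmt1 is the tallest methyltransferase in 4 of the 6 libraries, and the Tet enzymes and Ezh1 with Ezh2 are near or at 0 in Foxm1 HET replicate 2.

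For each Tet enzyme the genotypes overlapped, and Foxm1 HET replicate 2 was the lowest of the 6 libraries in log2 CPM. Tet2 (chromosome 3, 133463677 to 133544390, minus strand) had 3372, 1109 and 2251 reads in WT, against 7267, 4 and 2894 in Foxm1 HET. Foxm1 HET replicate 1 thus held the highest level and Foxm1 HET replicate 2 the lowest. Its log2 fold change was -0.39 (SE 1.92, edgeR adjusted p = 0.998), and 0.25 without Foxm1 HET replicate 2.

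Tet1 (chromosome 10, 62804570 to 62880014, minus strand) had 11244, 1421 and 1539 reads in WT, against 6509, 11 and 5106 in Foxm1 HET. Its highest level was in WT replicate 1 at 560.0 CPM, and the other WT libraries, at 61.7 and 71.5 CPM, lay below Foxm1 HET replicates 1 and 3 at 256 and 198 CPM. Tet3 (chromosome 6, 83362373 to 83441678, minus strand) had 8141, 5467 and 135 reads in WT, against 11438, 48 and 3873 in Foxm1 HET. WT replicate 3 and Foxm1 HET replicate 2 were low, and the other 4 libraries were between 150.0 and 449 CPM. The log2 fold changes of Tet1 and Tet3 were -1.18 (SE 1.77) and -0.63 (SE 1.73), each with an adjusted p of 0.998 from edgeR.

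Summed over the family, the Tet enzymes reached 95.2, 31.4 and 17.0 RPKM in WT, against 90.5, 0.385 and 40.0 in Foxm1 HET. Which Tet gene led also differed from library to library. Tet3 held the largest share of the summed reads per kb in WT replicate 2 (69.3%) and Foxm1 HET replicates 1 and 2 (45.5% and 78.3%), Tet2 in WT replicate 3 (66.8%) and Tet1 in WT replicate 1 (41.8%). In Foxm1 HET replicate 3 the shares were nearly equal, at 35.1%, 30.5% and 34.4% for Tet1, Tet2 and Tet3.

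Ezh2, the PRC2 methyltransferase of dividing cells, was the gene of the 10 whose log2 CPM was lower in each Foxm1 HET library than in each WT library. It lies on chromosome 6 (47530274 to 47595030, minus strand) and had 1174, 628 and 2163 reads in WT, against 565, 0 and 828 in Foxm1 HET. Its log2 CPM were 5.73, 4.80 and 7.08 in WT, against 3.90, -3.62 and 4.31 in Foxm1 HET, where the lowest value stands for the library with 0 reads, a count that allows up to 3 reads. Of all genes tested, 4.55% were lower in Foxm1 HET without overlap. Means were 5.87 ± 1.15 (SD, n = 3) for WT, against 1.53 ± 4.46 (SD, n = 3) for Foxm1 HET. The log2 fold change was -2.64 (SE 2.51, edgeR adjusted p = 0.998), and the exact permutation test gave p = 0.1 (two-sided), the smallest that 3 libraries against 3 can reach. The estimate lay between -3.14 and -1.85 as each library was left out, where a turned sign was hardly possible because the genotypes did not overlap. Scaled by library size alone the genotypes overlapped, with WT replicate 2 at 27.3 CPM and Foxm1 HET replicate 3 at 32.1 CPM.

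Its paralog Ezh1, known as the PRC2 methyltransferase of non-dividing cells (chromosome 11, 101191115 to 101226450, minus strand), was either abundant or near absent. It had 25, 1910 and 1400 reads in WT, against 61, 0 and 2256 in Foxm1 HET. WT replicate 1 and Foxm1 HET replicates 1 and 2 were thus low in both genotypes, and the remaining libraries were between 65.0 and 87.4 CPM. Its log2 fold change was -1.64 (SE 2.47, edgeR adjusted p = 0.998) and ranged from -6.00 to -0.94 as each library was left out, the lower end without Foxm1 HET replicate 3. The log2 ratio of Ezh1 to Ezh2 per kb was -6.15, 0.95 and -1.28 in WT, against -3.84, -0.65 and 0.79 in Foxm1 HET (two-sided exact permutation test, p = 0.7). No read of either gene was counted in Foxm1 HET replicate 2, so its ratio rests on the pseudocount of 1 read.

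The start regions of these paralogs are shown because forkhead factors such as Foxm1 bind TAAACA, because TTTGAA or TTCGAA (the CHR element) is bound by the MuvB complexes that recruit Foxm1 to mitotic genes, and because TTCGCGC or TTGGCGC is an E2F core common in genes of replication. The sequences are RefSeq windows on GRCm38.p6 from 250 bases before to 50 bases after the start site, written along the gene, with matches to these letters on either strand in capitals. The Ezh2 window (chr6:47594981-47595280, minus strand) held 1 match, to the E2F core. The Ezh1 window (chr11:101226414-101226713, minus strand) held 1 match, to the forkhead letters.
Ezh2: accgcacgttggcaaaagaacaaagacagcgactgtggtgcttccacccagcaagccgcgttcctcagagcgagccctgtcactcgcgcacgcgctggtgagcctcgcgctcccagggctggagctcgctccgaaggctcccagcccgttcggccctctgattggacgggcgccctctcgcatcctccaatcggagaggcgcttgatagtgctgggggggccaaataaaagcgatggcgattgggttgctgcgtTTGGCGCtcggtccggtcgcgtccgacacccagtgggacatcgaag
Ezh1: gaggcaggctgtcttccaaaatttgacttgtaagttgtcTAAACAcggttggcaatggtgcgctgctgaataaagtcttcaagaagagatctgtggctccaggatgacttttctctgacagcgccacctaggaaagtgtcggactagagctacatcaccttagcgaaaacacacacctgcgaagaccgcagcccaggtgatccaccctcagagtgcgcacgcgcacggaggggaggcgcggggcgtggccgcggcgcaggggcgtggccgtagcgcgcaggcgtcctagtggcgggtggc
Over all 32851 windows of the same length, 13.4% held the forkhead letters, 19.2% the CHR letters and 3.89% the E2F core. The 10 genes had 14 windows. Of these, 1 held the forkhead letters (Ezh1), 3 the CHR letters (Dnmt1, Dnmt3b and Asxl1) and 2 the E2F core (Dnmt1 and Ezh2). A match is a description of the letters and not of binding.

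Bmi1, the PRC1 subunit that represses the Cdkn2a locus in stem cells, was the gene of the 10 that lay higher in each Foxm1 HET library than in each WT library. It lies on chromosome 2 (18677018 to 18686629, plus strand) and had 264, 47 and 61 reads in WT, against 980, 1133 and 732 in Foxm1 HET. In CPM this was 13.1, 2.04 and 2.83 in WT, against 38.5, 77.7 and 28.4 in Foxm1 HET, and the highest WT library was below the lowest Foxm1 HET library under each of the 4 scalings. Of all genes tested, 4.12% were higher in Foxm1 HET without overlap. Mean log2 CPM was 2.22 ± 1.26 (SD, n = 3) for WT, against 5.43 ± 1.78 (SD, n = 3) for Foxm1 HET. The log2 fold change was 3.61 (SE 2.66, edgeR adjusted p = 0.971), with p = 0.1 in the two-sided exact permutation test. Without Foxm1 HET replicate 2 it was 1.92 (SE 2.89). Of the 50-base stretches of Bmi1 transcripts, 16.7% also occur in other genes, one of them Gm5946, so its counts are uncertain. Gm5946 itself had 164, 0 and 42 reads in WT, against 206, 860 and 336 in Foxm1 HET. With the reads of both genes added, the values were 21.3, 2.04 and 4.78 CPM in WT, against 46.6, 137 and 41.4 CPM in Foxm1 HET, again without overlap.

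The start region of Bmi1 (RefSeq window on GRCm38.p6, chr2:18676768-18677067, plus strand) is shown beside that of Ezh2 because the libraries of these genes separated in opposite directions. It held none of the letters searched, and therefore no capitals.
Bmi1: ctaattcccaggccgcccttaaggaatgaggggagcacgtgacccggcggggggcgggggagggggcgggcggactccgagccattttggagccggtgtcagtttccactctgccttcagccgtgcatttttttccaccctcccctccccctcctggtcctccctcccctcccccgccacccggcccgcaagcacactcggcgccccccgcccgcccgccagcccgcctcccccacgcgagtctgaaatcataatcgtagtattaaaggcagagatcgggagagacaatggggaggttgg
The window held 23 CpG sites, the Ezh2 window 31 and the Ezh1 window 23, where the median window had 7. Windows of the 10 genes ranged from 2 CpG sites, in the farthest upstream of 3 Dnmt1 windows, to 57 in Tet2.

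Asxl1, the PR-DUB cofactor (chromosome 2, 153346139 to 153404007, plus strand), had 7242, 1358 and 2103 reads in WT, against 3171, 9703 and 6975 in Foxm1 HET. Foxm1 HET replicate 2 stood above every other library, at 666 CPM against 59.0 to 361 CPM. The log2 fold change was 1.75 (SE 1.57, edgeR adjusted p = 0.988) with all libraries and -0.42 (SE 1.58) without that library, so its direction rested on 1 library. Among 3328 other genes with a mean of at least 50 CPM, those whose log2 CPM were most like those of Asxl1 over the 6 libraries were Rnf114, Clcc1 and Zfp326, with Pearson's r of 0.987, 0.982 and 0.978. Without Foxm1 HET replicate 2 these r were 0.948, 0.979 and 0.924. The points share their libraries, and these genes were the closest of many compared.

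**Figure D3:**
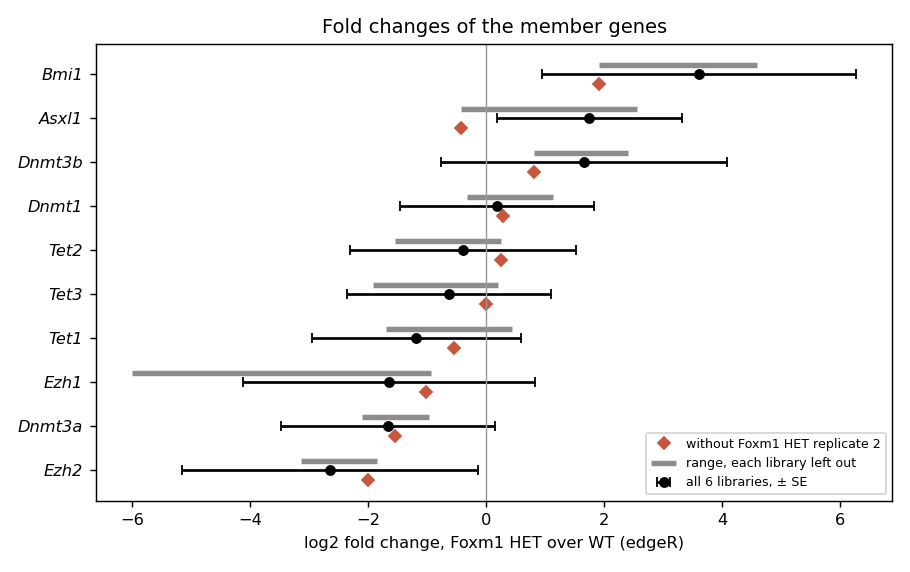
Log2 fold change of Foxm1 HET over WT for each gene, as the edgeR estimate with its standard error (black), the range over fits that each left out 1 library (grey) and the value without Foxm1 HET replicate 2 (red). Asxl1 changes sign without that library, from 1.75 to -0.42, whereas Bmi1 stays above 0 and Ezh2, Dnmt3a and Ezh1 below 0 in each of these fits. For Bmi1 and Ezh2, whose genotypes did not overlap, a turned sign was hardly possible.

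Levels were compared between genes per kb of gene length. In the median of the 6 libraries the order was Dnmt1 (35.0 RPKM), Asxl1 (29.6), Tet3 (17.8), Tet2 (11.8), Dnmt3a (11.7), Ezh2 (11.1), Tet1 (9.57), Ezh1 (8.04), Dnmt3b (7.05) and Bmi1 (5.78). No gene differed from the next in this order by more than the SD of their log2 difference over the 6 libraries. In WT alone Dnmt1 also came first (27.9) and Bmi1 last (0.788), and Dnmt3b exceeded Bmi1 in 3 of 3 libraries. In Foxm1 HET Bmi1 was seventh of the 10, at 10.7 RPKM, and Ezh1 last, at 0.571. Together the 10 genes took between 0.0639% and 0.212% of the counted reads of a library. The leading gene was Dnmt1 in WT replicate 1 and Foxm1 HET replicates 1 and 3, Dnmt3a in WT replicate 2, Ezh2 in WT replicate 3 and Asxl1 in Foxm1 HET replicate 2.

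Some of the 10 genes went together from library to library. Over the 6 libraries Pearson's r of log2 CPM was 0.96 for Tet1 with Tet2 and 0.94 for Tet2 with Ezh2, and without Foxm1 HET replicate 2, in which all 3 genes were lowest, it was 0.63 and 0.22. Dnmt3b and Ezh1 went opposite ways, with r of -0.95, and -0.90 without that library. Dnmt3a and Bmi1 likewise had r of -0.79, and -0.94 without it. These are descriptions over libraries that share their depth and scaling, out of 45 pairs with a median r of 0.03.

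Further genes of these pathways were counted on 7 lists of 106 genes in all, of which 79 had enough reads. None of the 79 passed an adjusted p of 0.05 in edgeR's test or limma-voom, nor did any of the 62 for which DESeq2 gave one, which leaves out Idh1. At an unadjusted p under 0.05 edgeR gave 1, Idh1. The estimates were higher in Foxm1 HET for 36 genes and lower for 43. Genotypes did not overlap for 6 of the 79 genes (7.59%), against 8.68% of all genes tested.

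**Figure D4:**
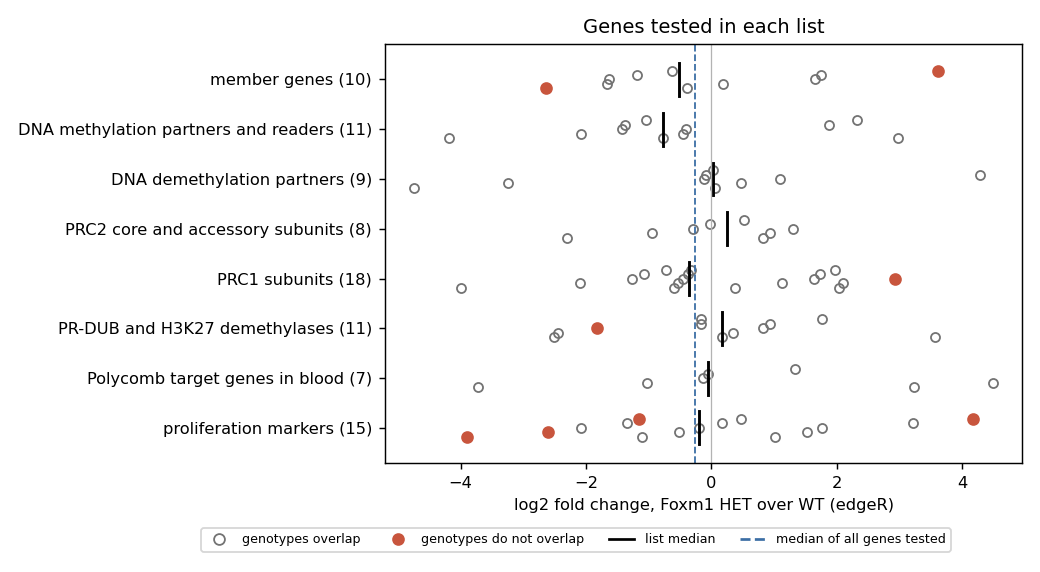
Log2 fold changes of Foxm1 HET over WT for the genes tested in each list, with the number tested in brackets, the list median as a black bar and the median of all genes tested as a dashed line at -0.26. Filled points are genes whose libraries did not overlap between genotypes, as for 8.68% of all genes tested. They number 2 among the 10 genes described here and 4 among the 15 proliferation markers.

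Partners and readers of DNA methylation had 11 of 13 genes tested, with a median log2 fold change of -0.77. Mbd2, a reader of methylated CpG sites, had the smallest p toward higher levels, with 870, 316 and 4 reads in WT, against 4567, 1736 and 1344 in Foxm1 HET (log2 fold change 2.97, SE 2.19). Zbtb38, another methyl-CpG binding protein, had the smallest p toward lower levels, with 29, 9342 and 3 reads in WT, against 455, 4 and 422 in Foxm1 HET, so that WT replicate 2 alone was high. On the demethylation list 9 of 16 genes were tested, with a median of 0.02. Idh1, which makes the 2-oxoglutarate that Tet enzymes consume, had 73, 614 and 410 reads in WT, against 424, 6958 and 129 in Foxm1 HET. The difference, a log2 fold change of 4.28 (SE 1.93, edgeR adjusted p = 0.715), was -1.33 without Foxm1 HET replicate 2. Tdg, the glycosylase that excises oxidized methylcytosine, had over 100 reads in WT replicate 3 alone.

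Of the other PRC2 subunits 8 of 12 were tested, with 4 higher and 4 lower estimates and no gene without overlap. Jarid2, an accessory subunit, had 169, 2203 and 23200 reads in WT, against 7320, 433 and 2261 in Foxm1 HET, and the histone-binding subunit Rbbp7 had 3276, 2548 and 6 in WT, against 3629, 3232 and 2285 in Foxm1 HET. Both genotypes thus overlapped for these 2 genes, with WT replicate 3 the outermost library of each. Of the PRC1 list 18 of 24 genes were tested, with 8 higher and 10 lower. Bcor, a subunit of a variant PRC1, was the one without overlap, at 77.9, 109 and 11.1 CPM in WT, against 170.0, 465 and 546 CPM in Foxm1 HET (log2 fold change 2.93, SE 1.71, edgeR adjusted p = 0.921). Without Foxm1 HET replicate 2 its log2 fold change was 1.82. L3mbtl2, another PRC1 component, was high in WT replicate 2 alone, with 3052 reads.

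On the list of PR-DUB and H3K27 demethylases 11 of 13 genes were tested. Hcfc1, a PR-DUB subunit that was chosen after its values were seen, was lower in every Foxm1 HET library in log2 CPM, though not in reads (9079, 10552 and 28386 in WT, 13536, 1223 and 8492 in Foxm1 HET, log2 fold change -1.83, SE 1.49). Asxl2, the paralog of Asxl1, had 2139, 9374 and 10992 reads in WT, against 1880, 99 and 6077 in Foxm1 HET, and its genotypes overlapped. Usp16, a deubiquitinase of histone H2A, had 3596 reads in Foxm1 HET replicate 1 and at most 472 in the other libraries. Of 13 genes that Polycomb represses in blood cells or their precursors, 7 were tested, with a median log2 fold change of -0.06. Cdkn2a and Cdkn2b, the classical targets of Bmi1, had 0 reads in every library, and Hoxa9 and Hoxa10 had the smallest p in each direction, with Hoxa10 at 0 reads in 1 WT and 2 Foxm1 HET libraries.

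Because Dnmt1 and Ezh2 are known to be more abundant in dividing cells, 15 proliferation markers were set beside them. They summed to 1150 to 2060 CPM in WT and 622 to 2090 CPM in Foxm1 HET, with the lowest sum in Foxm1 HET replicate 2. Estimates were higher for 7 markers and lower for 8, with 0 called, against 0.329% of all genes tested. Genotypes did not overlap in log2 CPM for 4 of the 15 markers, against 8.68% of all genes tested. Ccna2, cyclin A2, was lower in each Foxm1 HET library in log2 CPM, as Ezh2 was, and so were Ccnb1 and Top2a, which were chosen after their values were seen. Before TMM scaling Ccna2 had 342, 148 and 799 CPM in WT and 222, 9.68 and 135 CPM in Foxm1 HET, values that overlap. Top2a overlapped as well, with its highest value, 729 CPM, in Foxm1 HET replicate 1, against 629, 511 and 388 CPM in WT. Ccnb1 did not overlap before TMM scaling either, at 12.9, 29.8 and 9.06 CPM in WT and 0.314, 0 and 5.47 CPM in Foxm1 HET. Mcm3, a replication licensing subunit, was higher in each (185, 31 and 63 reads in WT, 2382, 431 and 4969 in Foxm1 HET). The part of cell division in the level of Ezh2 was not tested.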

How the data were processed

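RNA-Seq data from 3 WT and 3 Foxm1 HET LT-HSC libraries were analyzed, grouped by the genotype in the labels. The authors trimmed single reads of 50 bases and aligned them to GRCm38 with STAR 2.7.2b, and deposited the raw counts of each gene with its length. The counting program and its settings are not given in the sources used here. The authors also deposited a normalized table on a log2 scale, which served as an alternative. Library kits are given differently in the labels (stranded, ribosomal RNA removed) and the paper (Clontech).

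Counts were tested with edgeR 4.0.16 in R 4.3.3 (default filter, TMM scaling, quasi-likelihood test, Benjamini-Hochberg adjustment over 8195 genes). Standard errors were derived from the F statistic (fold change on the log2 scale over the root of F). They include the variation between libraries, which was large (edgeR's common biological coefficient of variation was 1.66). Library totals limit the precision of low counts, and intervals for counts of 0 cover counting error only. Whether libraries came from separate mice is stated in the paper (3 pairs) but not in the labels. Genotypes were also compared with two-sided exact permutation tests. Paralog ratios used log2 of (reads + 1) per kb. Alternatives were 3 other scalings, 2 other filters, each library left out, a block for the replicate number, DESeq2 1.42.0, limma-voom (limma 3.58.1) and limma on the normalized table. The models were also run on simulated counts, with a pass required only of edgeR at a dispersion far below that of these libraries. That run does not show what could be detected here. Gene symbols came from the normalized table or RefSeq (GRCm38.p6), and 50-base stretches from GENCODE M21 transcripts. Named genes were Foxm1, the 10 genes and, for each list, the gene with the smallest p in each direction, and the genes most like the member of highest mean CPM, without regard to length (Asxl1, a rank that rests on Foxm1 HET replicate 2). Genes named outside this rule, marker genes aside, are marked as chosen after their values were seen. The members and lists were chosen with earlier results of these data known. A marker gene of the sorted cells, and the sum of the marker list that holds it, are not reported here.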

Additional observations from a re-analysis of the deposited data

How the results depend on the processing

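No gene of the 10, and none of the 79 further pathway genes, passed the threshold in any fit that tested it. DESeq2 gave no adjusted p for Asxl1, Ezh1, Bmi1 and 17 of the 79, and with at least 10 counts in every library 50 of the 79 were left out. Over all genes, the number called (27) was 10 with RLE scaling, 43 with upper-quartile scaling, 7 with library size only, 194 with DESeq2, 4 with limma-voom, and 0 on the normalized table, with at least 10 counts in every library or with the replicate block (576, 157 and 108 genes at an unadjusted p under 0.05). It ranged from 0 to 29 as each library was left out, with 0 without WT replicates 1 or 2 or Foxm1 HET replicate 2 and 1 without WT replicate 3. Same-numbered libraries did not deviate together (r between -0.0687 and 0.0162), so the numbers were not taken as pairs, and the block moved no call among the 10 genes.

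Non-overlapping genes numbered 1 of the 10 with library size only, where 7.97% of all genes did not overlap. With at least 10 counts in every library they numbered 1 of 7 (Tet2, Ezh1 and Ezh2 were left out), against 10.1% of all genes. As each library was left out they numbered 2 to 4, where 15.0% to 21.6% of all genes then did not overlap. The median log2 fold change of the 10 genes ranged from -1.12 to 0.32 in those fits. Scalings moved the median of all genes by 0.13 (RLE) to 0.40 (upper quartile).

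Signs turned as libraries were left out for Dnmt1 (-0.32 to 1.13), Tet1 (-1.69 to 0.44), Tet2 (-1.55 to 0.25), Tet3 (-1.91 to 0.20), Asxl1 (-0.42 to 2.56), the ratio of Ezh1 to Ezh2 (-1.07 to 2.48), Idh1 (-1.33 to 4.79), Rbbp7 (-0.17 to 1.88), Tdg (-6.87 to 1.17), Jarid2 (-3.04 to 0.96), Zbtb38 (-4.82 to 3.29) and L3mbtl2 (-4.62 to 4.20). Tet2 was also 0.05 with upper-quartile scaling and 0.33 with library size only. Jarid2 was 0.14 and L3mbtl2 0.33 with limma-voom, Jarid2 was 0.28 on the normalized table, and with the replicate block Zbtb38 was 2.53 and L3mbtl2 3.20. Dnmt3a, Dnmt3b, Ezh1, Ezh2 and Bmi1 kept their direction in every fit that tested them. For Ezh2 and Bmi1 this adds little as libraries were left out, because their genotypes did not overlap. The cause of these moves was not tested beyond the libraries named.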
